A study of Mus musculus with 16 samples.

Results

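A set of 10 genes of metal binding and antioxidant defence was examined in mouse tail discs: Mt1, Mt2, Hmox1, Nqo1, Sod2, Sod3, Gclm, Txnrd1, Srxn1 and Nfe2l2. They were chosen by gene name, with earlier results of these data known. All 10 were found, 1 row each, in a table of 49315 genes. Bulk RNA sequencing covered 16 mice, with 4 tail discs pooled per mouse and 1 library each. The labels give 3 wild-type mice with intact discs, 4 wild-type mice with injured discs, 4 Adam8EQ mice with intact discs and 5 Adam8EQ mice with injured discs. Adam8EQ is named in the labels as an allele of Adam8, a membrane-bound metalloprotease, and the series title names DBA, an inbred strain, beside it. The titles call the genotypes WT and MUT, and the genotype field of wild-type libraries is cut short. How the discs were injured, how long before collection, and the age and sex of the mice are not given in the sources used here. Levels are TPM, reads scaled by gene length and library total. Setting genes side by side relies on the gene lengths used, which are not given in the sources used here.

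Cells meet oxidants with a set of enzymes that remove superoxide, peroxides, haem and quinones, and many of the encoding genes are driven by the transcription factor NRF2, the product of Nfe2l2. NRF2 is held at a low level by KEAP1 and binds DNA at the antioxidant response element (ARE) together with small MAF proteins, where BACH1 competes with it. Metallothioneins are small cysteine-rich proteins that bind zinc and copper, and their genes answer to zinc through the factor MTF1, which binds metal response elements (MRE), and also to glucocorticoids and cytokines. The intervertebral disc is largely without vessels and low in oxygen.

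Mt1 and Mt2 are neighbours on GRCm38 chromosome 8, both on the plus strand, at 94179082 to 94180327 and 94172664 to 94173568, with 5513 bases between them. Their promoter windows are shown because both genes rose in injured Adam8EQ discs, and that of Txnrd1 (chromosome 10, plus strand) because this gene rose too. Each window runs from 250 bases before to 50 after a start annotated by RefSeq on GRCm38.p6. Capitals mark matches, on either strand, to the MRE core (TGCACNC or TGCGCNC) and to the ARE core (TGACNNNGC).
Mt1, chr8:94178839-94179138: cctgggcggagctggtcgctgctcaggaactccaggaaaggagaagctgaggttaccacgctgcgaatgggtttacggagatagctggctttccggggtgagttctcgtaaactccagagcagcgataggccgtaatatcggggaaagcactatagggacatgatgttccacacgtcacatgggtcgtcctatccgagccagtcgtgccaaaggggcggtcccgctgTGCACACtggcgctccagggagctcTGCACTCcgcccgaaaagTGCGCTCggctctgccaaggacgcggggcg
Mt2, chr8:94172368-94172667: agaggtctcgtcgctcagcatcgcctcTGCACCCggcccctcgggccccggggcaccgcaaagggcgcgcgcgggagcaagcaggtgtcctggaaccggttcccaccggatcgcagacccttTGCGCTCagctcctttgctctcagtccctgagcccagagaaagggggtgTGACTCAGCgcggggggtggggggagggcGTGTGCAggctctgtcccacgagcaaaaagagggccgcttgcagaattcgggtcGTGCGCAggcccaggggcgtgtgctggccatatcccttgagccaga
Txnrd1, chr10:82858956-82859255, the second of 3 annotated starts: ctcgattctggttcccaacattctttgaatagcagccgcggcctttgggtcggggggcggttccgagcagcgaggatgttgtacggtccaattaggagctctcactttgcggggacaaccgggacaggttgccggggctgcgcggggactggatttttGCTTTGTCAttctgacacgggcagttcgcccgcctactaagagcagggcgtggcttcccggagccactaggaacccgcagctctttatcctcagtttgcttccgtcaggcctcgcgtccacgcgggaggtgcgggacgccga
The Mt1 window held 3 MRE cores and no ARE core. Only the windows were searched, so a core not found here may still lie in the promoter outside them. In the Mt2 window there were 4 MRE cores and 1 ARE core, and the ARE match TGACTCAGC overlaps the AP-1 core TGACTCA. The Txnrd1 window shown held 1 ARE core on the opposite strand and no MRE core, and the windows at its other 2 starts held neither. Of 32851 RefSeq promoter windows of this length, 25.7% held an MRE core, 0.517% held at least 4 and 12.4% held an ARE core. Windows were found for 8 of the 10 genes, and 1 ARE core each also lay in those of Gclm, Srxn1 and Nfe2l2. MRE cores were not limited to the metallothioneins: the Gclm window held 3, as many as that of Mt1, and the Srxn1 window 1. The Nqo1 and Sod2 windows held no core of either kind. A match of letters is a description of the window and not a measured binding site.

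The other members are protein-coding genes spread over the genome (GRCm38). Hmox1 (chromosome 8, 75093621 to 75100589, plus strand) and Nqo1 (chromosome 8, 107388225 to 107403206, minus strand) share a chromosome with the metallothioneins. Sod2 lies on chromosome 17 (13006846 to 13040063, plus strand) and Sod3 on chromosome 5 (52363791 to 52371418, plus strand). Gclm is on chromosome 3 (122245557 to 122270732, plus strand) and Txnrd1 on chromosome 10 (82833951 to 82897712, plus strand). Srxn1 (152105516 to 152111376, plus strand) and Nfe2l2 (75675513 to 75704641, minus strand) are both on chromosome 2.

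The tissue label was checked against marker genes. All 6 markers of cartilage-like and annulus disc cells were present in all 16 libraries, with a lowest value of 2426 TPM for Acan, 658 for Col2a1, 589 for Col1a1, 353 for Sox9 and 251 for Comp, whereas Col9a1 was low throughout, at 0.580 to 12.6 TPM. Comp fell by 2.53 with injury in Adam8EQ (limma adjusted p 0.001854), and the other 5 did not pass. Markers of several other cell types differed between intact and injured discs. The summed level of 8 macrophage markers was 132 to 221 TPM in the 7 intact libraries, 229 to 3743 in injured wild-type and 746 to 7417 in injured Adam8EQ discs. Lyz2 was the highest of these 8 in injured discs, with a mean of 1102 TPM in the wild type and 1912 in Adam8EQ. Cd68 came next, at 225 and 355. Csf1r and Cd163 changed less, with means of 53.6 and 5.35 in intact and 81.4 and 9.62 in injured Adam8EQ discs. The sum of 7 neutrophil markers was 0.852 to 4.80 TPM in intact discs, 2.65 to 175 in injured wild-type and 12.9 to 952 in injured Adam8EQ discs, with Mpo at 0 in 14 libraries. Notochordal markers went the other way, from 6203 to 14017 TPM in intact discs to 2662 to 9705 in injured wild-type and 59.9 to 6064 in injured Adam8EQ discs. Car3 and T had the highest means of this list, whereas Shh (0 to 0.485 TPM) and Noto (0 to 0.785) were near 0 throughout. The 4 notochordal markers tested were all called lower in Adam8EQ, and none was called in the wild type. Osteoclast markers summed to 67.0 to 92.2 TPM in intact discs, 73.7 to 229 in injured wild-type and 124 to 314 in injured Adam8EQ discs, and of these Ctsk was called in Adam8EQ. Endothelial markers summed to 1.59 to 13.0 TPM in intact discs, 5.61 to 152 in injured wild-type and 7.75 to 55.0 in injured Adam8EQ discs, with none called. Erythroid markers summed to 265 to 728 TPM in intact and 113 to 1473 in injured wild-type discs. In Adam8EQ their sums were 68.1 to 273 in intact and 184 to 1181 in injured discs. Skeletal muscle markers summed to 142 to 568 and 57.9 to 167 TPM in the wild type, and to 91.9 to 108 and 21.2 to 442 in Adam8EQ. No erythroid or skeletal muscle marker was called in any comparison. In whole tissue, a change in the number of cells of a type and a change in RNA per cell cannot be told apart, and the part of these cells in the results that follow was not tested. Among injured wild-type mice, mice 1 and 2 had macrophage sums of 229 and 382 TPM, and mice 3 and 4 had 3743 and 2384. Adam8 itself lay at 1.51 ± 0.235 TPM (SD, n = 3) and 1.55 ± 0.948 (SD, n = 4) in intact wild-type and Adam8EQ discs, and at 32.6 ± 32.7 (SD, n = 4) and 87.3 ± 101 (SD, n = 5) in injured ones; a level of Adam8 RNA does not check an allele that changes the protein.

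In intact discs the 10 genes spanned a wide range and did not differ between genotypes beyond the spread between mice. Sod3, the secreted superoxide dismutase that binds the extracellular matrix, was the highest, at 960 ± 133 TPM (SD, n = 3) in the wild type and 986 ± 211 (SD, n = 4) in Adam8EQ, and stood at rank 75 and rank 72 of the 24188 genes tested. Mt1 followed at 219 ± 28.5 and 240 ± 50.3 TPM, then Mt2 at 122 ± 7.52 and 119 ± 24.4, and Nqo1 at 96.5 ± 18.4 and 96.8 ± 14.3. Sod2, Txnrd1, Nfe2l2, Hmox1 and Srxn1 lay between 29.7 and 65.3 TPM on average, and Gclm was lowest at 16.9 ± 2.77 and 13.8 ± 1.11. Sod3 alone made up 52.6% to 62.1% of the summed level of the 10 genes in each intact library. None of the 10 was called between genotypes (limma adjusted p of 1 for each), none had an unadjusted p under 0.05, where 0.0165% and 3.78% of all genes tested did so. The standard errors of these differences ran from 0.14 for Gclm to 0.61 for Hmox1 on the log2 scale.

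**Figure D1:**
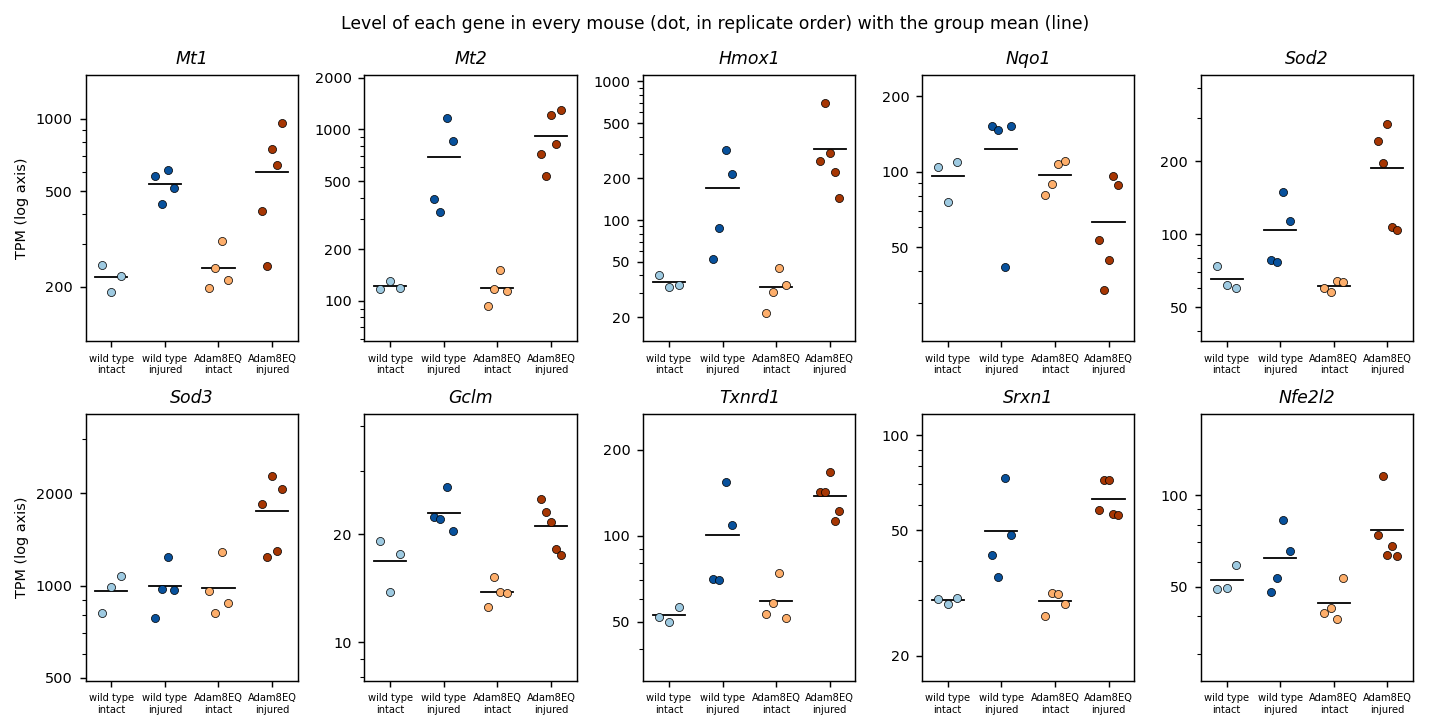
TPM of each of the 10 genes (log axis) in every mouse, grouped by genotype and treatment; dots are mice in replicate order and lines are group means. Injured Adam8EQ discs lie above intact ones without overlap for Mt2, Hmox1, Sod2, Gclm, Txnrd1, Srxn1 and Nfe2l2, and injured Nqo1 values go both ways.

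With injury, 9 of the 10 genes rose in Adam8EQ discs and 1, Mt2, rose in wild-type discs. The exception in Adam8EQ was Nqo1. Changes are differences of mean log2(TPM + 1) between injured and intact mice, called at a limma adjusted p under 0.05. Among all genes tested, 30.8% were called in either direction and 13.1% higher in injured Adam8EQ discs and 0.116% and 0.107% in injured wild-type discs. The balance of directions depended on scaling: 3168 genes were called higher and 4270 lower in Adam8EQ, or 3913 and 3602 with median-of-ratios scaling. Before adjustment, 6 of the 10 wild-type changes had a p under 0.05, a share of 17.2% over all genes tested. The median change of the 10 genes was 1.12 in Adam8EQ and 0.64 in the wild type, against -0.08 and 0.01 for all genes tested. Injured and intact mice did not overlap for 7 of the 10 genes in each genotype, all with injured mice higher, where 12% of all genes in Adam8EQ and 9.22% in the wild type did the same. Because the 10 genes were chosen with earlier results of these data known, these shares describe them and are no test of the set. All 10 changes were positive in the wild type, although that of Sod3 turned negative without intact mouse 1 (-0.07) or injured mouse 3 (-0.07). Each library is a separate mouse, so the p-values measure the spread between mice. Library names in Adam8EQ begin with A8 (injured mice 1 and 2, intact mice 1 and 2) or M (injured mice 3 to 5, intact mice 3 and 4). With the 5 M libraries alone 2 of the 10 genes, Mt1 and Mt2, were called, against 7 with the 4 A8 libraries alone, which did not call Mt1 and Sod3. Calls over all 24188 genes dropped too, from 7438 with all mice to 725 with M libraries and 3583 with A8 libraries. The 7 genes that lost their call with M libraries alone kept positive changes of 0.44 to 2.42, against 0.57 to 3.12 with all mice. All wild-type library names begin with D, so library naming and genotype cannot be told apart in the comparisons between genotypes.

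**Figure D2:**
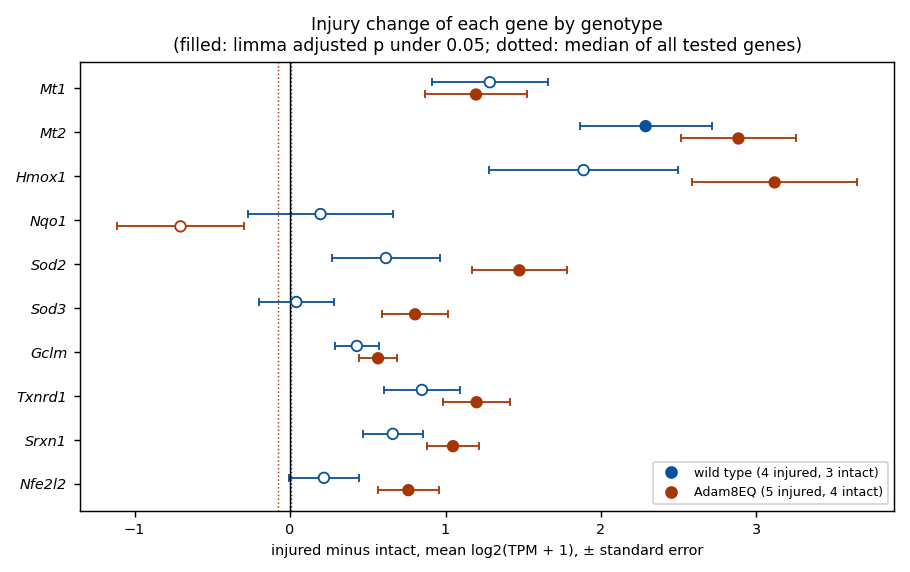
Injured minus intact difference of mean log2(TPM + 1) for each gene, with its standard error, in wild-type (4 against 3 mice) and Adam8EQ discs (5 against 4 mice). Filled symbols passed the threshold: 9 in Adam8EQ and Mt2 alone in the wild type; Nqo1 lies at -0.70 in Adam8EQ and 0.20 in the wild type.

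Mt2 had the largest wild-type change of the 10 genes and was the only one called there. It lay at 118, 131 and 118 TPM in the 3 intact wild-type mice and at 391, 332, 1170.0 and 853 in injured mice 1 to 4. Every injured mouse was above every intact one, and mice 3 and 4 were well above mice 1 and 2. The rise was 2.29 ± 0.42 (SE, limma adjusted p 0.04166). That call sits near the threshold: it was lost in 9 of 13 alternatives, among them the leaving out of any intact mouse or of injured mouse 3 or 4 (adjusted p up to 0.1653), while the change stayed between 1.97 and 2.57 in all 13. In Adam8EQ, Mt2 was 92.9, 118, 152 and 114 TPM in intact mice and 718, 536, 1216, 826 and 1308 in injured mice 1 to 5, again with no overlap. The rise there was 2.88 ± 0.37 (SE, limma adjusted p 0.0002455), and it was called in all 18 alternatives.

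Mt1 had smaller changes than its neighbour in both genotypes, a contrast that was not tested. It stood at 246, 189 and 222 TPM in intact wild-type mice and 576, 444, 611 and 514 in injured ones, a difference of 1.29 ± 0.37 (SE, limma adjusted p 0.1319) that did not pass although the groups did not overlap. In Adam8EQ, Mt1 was 196, 240, 310 and 213 TPM in intact mice and 413, 244, 752, 645 and 957 in injured mice 1 to 5, where injured mouse 2 lay within the intact range. The rise was 1.20 ± 0.33 (SE, limma adjusted p 0.00919). The call was not made in every set of library names: with the A8 libraries alone the change was 0.55 ± 0.27 (SE, limma adjusted p 0.1667) and with the M libraries alone 1.59 ± 0.23 (SE, limma adjusted p 0.01075).

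Within each library the balance of the pair shifted. Mt2 was at 0.473 to 0.692 times the level of Mt1 in the 7 intact libraries. In injured wild-type discs the ratio was 0.679 and 0.748 in mice 1 and 2, of which mouse 1 lies within the intact range and mouse 2 just above it, and 1.92 and 1.66 in mice 3 and 4. All 5 injured Adam8EQ libraries had a higher TPM for Mt2 than for Mt1, with ratios of 1.28 to 2.19, the highest in mouse 2, where Mt1 was lowest. Because both values come from the same library, this ratio does not depend on how libraries are scaled to each other. It does depend on the gene lengths behind TPM. Annotated exons cover 1246 bases for Mt1 and 588 for Mt2. A ratio above or below 1 thus does not settle which RNA has more copies. The ratio was chosen after the values were seen and has no test. The pair together made up 289 to 462 TPM in intact libraries and 776 to 2265 in injured ones. An antisense transcript, Gm45774, overlaps Mt2 at 1.65 to 18.9 TPM, and whether counting used strand is not given in the sources used here.

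**Figure D3:**
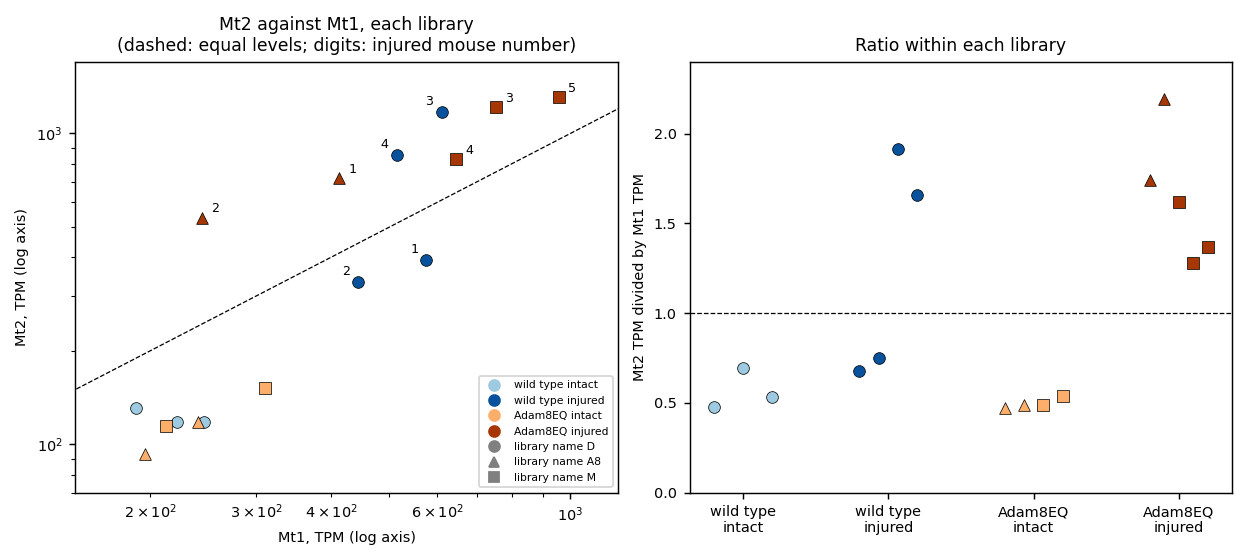
Left, Mt2 against Mt1 in TPM (log axes) in each of 16 libraries, with the dashed line at equal levels and digits for injured mouse numbers; right, the Mt2 to Mt1 ratio by group, with marker shapes for the library name. All intact libraries lie below a ratio of 0.7, and injured wild-type mice 3 and 4 lie with the 5 injured Adam8EQ mice above 1.2.

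Hmox1, the inducible enzyme that splits haem into biliverdin, iron and carbon monoxide, had the largest change of the 10 in Adam8EQ. Intact Adam8EQ mice had 21.5, 30.5, 45.1 and 34.2 TPM, and injured mice 1 to 5 had 265, 699, 303, 222 and 145. Every injured mouse was well above every intact one, and mouse 2 was far above the rest. The rise was 3.12 ± 0.53 (SE, limma adjusted p 0.0007846). In the wild type, intact mice had 40.1, 32.8 and 33.9 TPM and injured mice 1 to 4 had 52.3, 88.2, 322 and 216, a graded set without overlap. The difference of 1.89 ± 0.61 (SE, limma adjusted p 0.1498) did not pass with all mice and did without injured mouse 1 (2.34, adjusted p 0.04042).

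Hmox1 was set beside macrophage markers across the injured libraries. Injured wild-type mouse 1, with the lowest macrophage sum of the injured set (229 TPM), had the lowest Hmox1. Injured Adam8EQ mouse 2, with the highest sum (7417 TPM), had the highest, and it also had the highest neutrophil sum (952 TPM). From the lowest to the highest macrophage sum, Hmox1 was 52.3, 88.2, 145, 303, 265, 216, 222, 322 and 699 TPM. The order thus held at both ends and not in the middle. On average Lyz2 weighed most in the injured sums. Whether this order follows that gene more than the other markers was not tested. Over the 16 libraries the genes most like Hmox1 included Hcls1, a blood-cell cytoskeletal protein, and Adam17, a sheddase, with Pearson r of 0.985 and 0.984 on log2(TPM + 1) among 11927 genes compared. These correlations describe likeness over libraries that fall into intact and injured sets, and the part of infiltrating cells was not tested. Genes of the phagocyte oxidase rose in Adam8EQ: Ncf1 from 3.50 ± 1.74 to 55.0 ± 30.4 TPM, Ncf4 from 0.872 ± 0.748 to 37.3 ± 37.2 and the activator Rac2 from 0.644 ± 0.503 to 26.0 ± 27.4 (SD, n = 4 and 5).

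**Figure D4:**
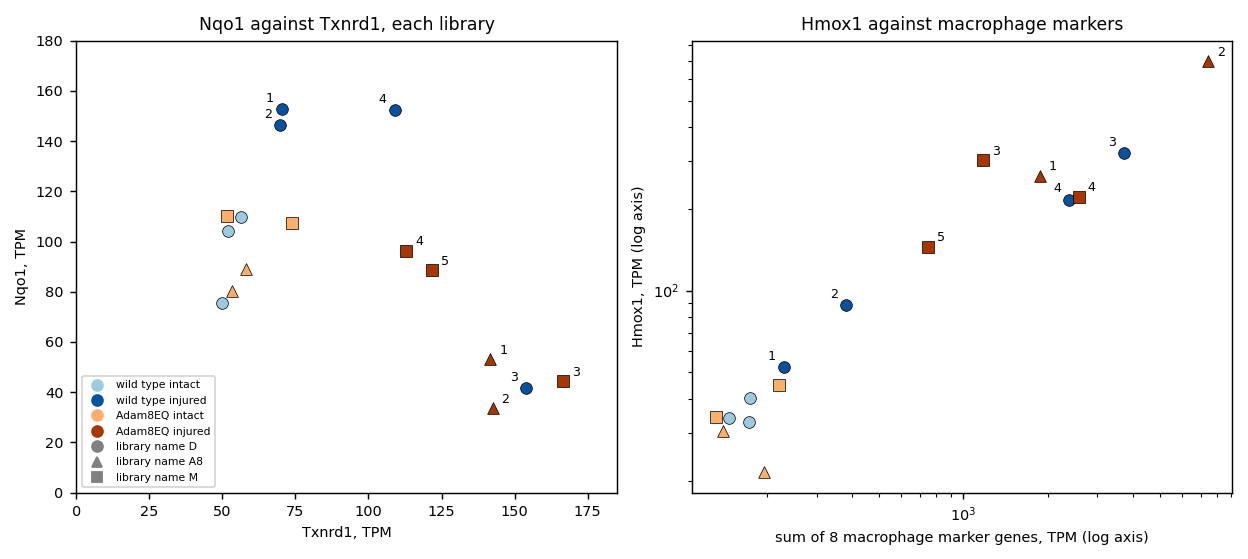
Left, Nqo1 against Txnrd1 in TPM in each library; right, Hmox1 against the summed TPM of 8 macrophage markers (log axes); colours give the group, shapes the library name and digits the injured mouse number. Nqo1 is lowest in the 4 injured libraries with the highest Txnrd1, and Hmox1 is highest in the library with the highest macrophage sum. Lyz2 has the highest mean of the 8 markers in injured discs.

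Both superoxide dismutases rose in Adam8EQ and neither passed in the wild type. Sod2, the mitochondrial manganese enzyme, lay at 60.2, 58.1, 64.1 and 63.5 TPM in intact Adam8EQ mice, a narrow band, and at 243, 197, 284, 107 and 104 in injured mice 1 to 5. No injured mouse fell in the intact range, and mice 4 and 5 were lower than mice 1 to 3. The rise was 1.48 ± 0.30 (SE, limma adjusted p 0.002027). Wild-type Sod2 was 74.1, 61.8 and 60.0 TPM in intact and 78.1, 76.7, 149 and 113 in injured mice, where mice 1 and 2 were barely above the intact ones, and the difference of 0.62 ± 0.35 did not pass (SE, limma adjusted p 0.3279). Sod3 was 958, 816, 1290 and 880 TPM in intact Adam8EQ mice and 1850.3, 1238, 2269, 1301 and 2070.1 in injured ones, and only injured mouse 2 lay within the intact range. It rose by 0.80 ± 0.21 (SE, limma adjusted p 0.01114) in Adam8EQ. In the wild type Sod3 stood at 814 to 1073 TPM in intact and 785 to 1241 in injured mice, fully overlapping, with a difference of 0.04 ± 0.24 (SE, limma adjusted p 0.9484). Sod1, the cytosolic enzyme and no member of the set, did not pass in either genotype, at -0.37 ± 0.18 in the wild type and -0.38 ± 0.16 in Adam8EQ (SE, limma adjusted p 0.3081 and 0.08437).

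Nfe2l2 and 3 genes widely used as NRF2 targets changed less than Hmox1. Nfe2l2 RNA was 39.2 to 53.4 TPM in intact Adam8EQ mice and 73.6, 116, 63.6, 67.9 and 63.2 in injured mice 1 to 5, with no overlap, and rose by 0.76 ± 0.20 (SE, limma adjusted p 0.007329). In the wild type it overlapped, at 49.2 to 58.9 TPM in intact and 48.1 to 82.5 in injured mice (0.22 ± 0.22, SE, limma adjusted p 0.6015). NRF2 is controlled largely through its stability, so the RNA does not measure the protein. An snRNA annotated inside Nfe2l2 on the same strand, Gm24996, lay at 15.9 to 119 TPM.

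Txnrd1, the cytosolic thioredoxin reductase, went from 53.2, 58.1, 73.9 and 51.5 TPM in intact Adam8EQ mice to 142, 142, 167, 113 and 122 in injured ones, with no overlap. The rise was 1.20 ± 0.22 (SE, limma adjusted p 0.001156). Injured wild-type mice had 70.4, 69.9, 154 and 109 TPM against 49.8 to 56.3 in intact ones, 0.85 ± 0.25 higher (SE, limma adjusted p 0.1359), which passed without injured mouse 1 (0.99, adjusted p 0.04502). Srxn1, sulfiredoxin, which repairs over-oxidised peroxiredoxins, lay at 29.1 to 30.4 TPM in intact wild-type and 26.7 to 31.7 in intact Adam8EQ discs. It reached 41.8, 35.6, 73.1 and 48.4 TPM in injured wild-type mice and 57.8, 72.2, 72.0, 56.2 and 56.0 in injured Adam8EQ mice, without overlap in either genotype. Its wild-type change was 0.66 ± 0.19 (SE, limma adjusted p 0.1371), and it rose by 1.05 ± 0.17 in Adam8EQ (SE, limma adjusted p 0.0007637). Gclm, the modifier subunit of the enzyme that starts glutathione synthesis, changed least of the genes called: intact Adam8EQ mice had 12.5 to 15.2 TPM and injured ones 17.5 to 25.1, a rise of 0.57 ± 0.12 (SE, limma adjusted p 0.005764). In wild-type mice Gclm was 13.8 to 19.2 TPM in intact and 20.4 to 27.1 in injured discs, 0.43 ± 0.14 apart (SE, limma adjusted p 0.1908). The catalytic partner Gclc stayed at 50.2 ± 6.16 TPM in intact (SD, n = 4) and 48.8 ± 3.57 in injured Adam8EQ discs (SD, n = 5), a difference of -0.03 ± 0.08 (SE, limma adjusted p 0.8037).

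Nqo1, a quinone reductase and a standard NRF2 target, did not follow the others. Intact wild-type mice had 104, 75.5 and 109.9 TPM, and injured mice 1 to 4 had 153, 146, 41.5 and 152. Injured mouse 3 alone fell below the intact mice, and the other injured mice were above them. Intact Adam8EQ mice had 80.5, 89.1, 107 and 110.1 TPM, and injured mice 1 to 5 had 53.2, 33.7, 44.3, 96.4 and 88.6, with mice 4 and 5 inside the intact range and mice 1 to 3 below it. Neither change passed, with a wild-type value of 0.20 ± 0.47 (SE, limma adjusted p 0.8375) and -0.70 ± 0.41 in Adam8EQ (SE, limma adjusted p 0.1662). Within a library, Nqo1 was 1.45 to 2.14 times Txnrd1 in intact discs, 0.270 in injured wild-type mouse 3 against 1.40 to 2.17 in the other injured wild-type mice, and 0.237 to 0.854 in injured Adam8EQ discs. Genes most like Nqo1 over the 16 libraries were Col11a2, Scrg1 and Col9a3, genes of cartilage cells, with Pearson r of 0.921, 0.914 and 0.906.

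The genes most like the other members are given by the same measure, as a description over 16 libraries. Timp1, Slc39a1 and Emilin1 were most like Mt2 (Pearson r 0.966, 0.966 and 0.964), and Tmie, Stat3 and Tomm5 most like Mt1 (0.936, 0.886 and 0.885), so the metallothionein neighbours had different closest genes. For Sod2 they were Slc11a2, H3f3b and Eif5 (0.979, 0.973 and 0.966), and for Sod3 Vps37b, Clmp and Elf1 (0.931, 0.921 and 0.920). Txnrd1 was closest to Nfkbiz, Slc25a37 and Twf1 (each 0.982 or 0.983), and Srxn1 to Relb, Gpd2 and Cebpa (0.974, 0.973 and 0.973). Wdr36, Api5 and Larp4 were closest to Gclm (0.954, 0.944 and 0.930), and Rab8b, Litaf and Atp6v0b to Nfe2l2 (0.945, 0.944 and 0.943).

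Injured discs were then compared between genotypes. None of the 10 genes passed, where 0.918% of all genes tested did (46 higher and 176 lower in Adam8EQ, or 76 and 84 with median-of-ratios scaling), and the groups overlapped for all 10, where 0.905% of all genes lay wholly higher and 3.86% wholly lower in Adam8EQ. At an unadjusted p under 0.05 there were 6 of 10, where 20.3% of all genes tested were. The lowest adjusted p was that of Sod3, which had 994 ± 188 TPM in wild-type discs (SD, n = 4) and 1746 ± 460 in Adam8EQ (SD, n = 5), 0.79 ± 0.21 higher in Adam8EQ (SE, limma adjusted p 0.0769). Hmox1 was 1.07 ± 0.53 higher, Sod2 0.78 ± 0.30, Txnrd1 0.51 ± 0.22 and Srxn1 0.37 ± 0.17, with Nqo1 at -0.89 ± 0.41 (SE, limma adjusted p 0.1431 to 0.2285). For Mt1 the difference was 0.03 ± 0.33 and changed sign with quantile normalization (-0.02), and for Mt2 it was 0.54 ± 0.37 (SE, limma adjusted p 0.9719 and 0.3901). The result leaned on single mice: without injured wild-type mouse 3, the calls were 5, namely Nqo1 (-1.35), Sod2 (0.97), Sod3 (0.90), Txnrd1 (0.73) and Srxn1 (0.57), and without injured Adam8EQ mouse 2 or 4 Sod3 alone was called (0.90 and 0.88). Calls over all 24188 genes rose as well, from 222 to 2253 without wild-type mouse 3. They were 675 without Adam8EQ mouse 2 and 597 without Adam8EQ mouse 4.

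Whether injury acted differently in the genotypes was asked as an interaction. No gene of the 10 passed, nor did any of the 24188 genes tested (0%); at an unadjusted p under 0.05 there was 1 of 10, Sod3, where 8.18% of all genes tested were. The Sod3 change was larger in Adam8EQ by 0.76 ± 0.32 (SE, limma adjusted p 0.5642), the Hmox1 change by 1.23 ± 0.81 and the Sod2 change by 0.86 ± 0.46 (SE, limma adjusted p 0.6869 and 0.6259). That 9 genes were called in Adam8EQ and 1 in the wild type is therefore not shown to be a difference between genotypes.

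The rest of the pathway was read from 7 gene lists with 82 tested genes, none of them members. These lists too were chosen with earlier results of these data known. In injured Adam8EQ discs 29 of the 82 rose, 7 fell and 46 did not pass, beside 13.1% of all genes called higher and 17.7% called lower, and the median change was 0.22. In the wild type 2 rose and 80 did not pass, beside 0.107% called higher, with a median of 0.18. Slc39a14, a zinc and iron importer, rose from 88.1 ± 17.6 (SD, n = 3) to 273 ± 45.6 TPM (SD, n = 4), by 1.63 ± 0.30 (SE, limma adjusted p 0.04166). Txn1, thioredoxin, the protein that Txnrd1 reduces, rose from 69.2 ± 9.81 to 171 ± 63.3 TPM, by 1.23 ± 0.23 (SE, limma adjusted p 0.04601). Both calls sit near the threshold, and listed genes were not followed through the alternatives.

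By list in injured Adam8EQ discs, 3 of 6 tested genes of zinc handling and other metallothioneins rose and none fell: Slc39a14 by 2.44, the zinc importer Slc39a10 by 1.29 and Mtf1, the metal-sensing factor, by 0.57. Mt3 was at 0.32 and did not pass. Of 10 NRF2 regulators 3 rose, Maff (1.10) and Mafg (0.89), small MAF partners, and Bach1 (0.98), the competitor, and 7 did not pass, among them Keap1 (-0.30). Of 18 glutathione genes 4 rose and 2 fell. The cystine importer Slc7a11 rose by 1.58 and glutaredoxin, Glrx, by 1.53, while the glutathione transferases Mgst1 and Gstm1 fell by 1.83 and 1.57. Slc7a11 was low and its call was near the threshold (limma adjusted p 0.04849). It had 0.890 to 1.83 TPM in intact Adam8EQ mice and 7.71, 29.1, 2.86, 5.86 and 1.26 in injured mice 1 to 5. Injured mouse 5 lay within the intact range. Gstm1 has close relatives that can share its reads.

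Of 13 thioredoxin and peroxiredoxin genes 5 rose, led by Txn1 (1.62), Prdx5 (1.25), Sesn2 (1.02) and Prdx1 (0.99), and 2 fell. One of these 2, Prdx4, the peroxiredoxin of the endoplasmic reticulum, was the 1 listed gene of 82 called between genotypes in injured discs, a share near the 0.918% over all genes. It had 84.2 ± 10.3 TPM in wild-type discs (SD, n = 4) and 60.3 ± 4.86 in Adam8EQ (SD, n = 5), a difference of -0.47 ± 0.10 (SE, limma adjusted p 0.04775). That call also sits near the threshold and was not followed through the alternatives. Among 10 genes for superoxide, peroxide, haem and iron, Fth1, the ferritin heavy chain that stores iron, rose by 1.13, Hpx, the haem carrier haemopexin, by 0.70, and Cat, catalase, fell by 0.39. Of 15 genes for NADPH supply and detoxification 4 rose, including Ugdh (1.14), Idh1 (0.88) and Akr1b8 (0.80), and 2 fell, including Aldh3a1, which fell by 1.79. The sources of reactive oxygen and nitrogen moved most: 8 of 10 rose, with Nos2 at 7.43, Ncf4 at 3.98, Rac2 at 3.61 and Ncf1 at 3.53, and a list median of 3.11. Ncf1, Ncf4 and Rac2 are genes of phagocytes, and 6 of 8 macrophage and 4 of 5 tested neutrophil markers also rose, beside 13.1% of all genes. The remaining tested neutrophil marker, Elane, did not pass and lay at 0.255 ± 0.327 TPM in intact Adam8EQ discs (SD, n = 4) and at 0 in injured ones. In no list was a gene called between genotypes in intact discs or in the interaction.

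**Figure D5:**
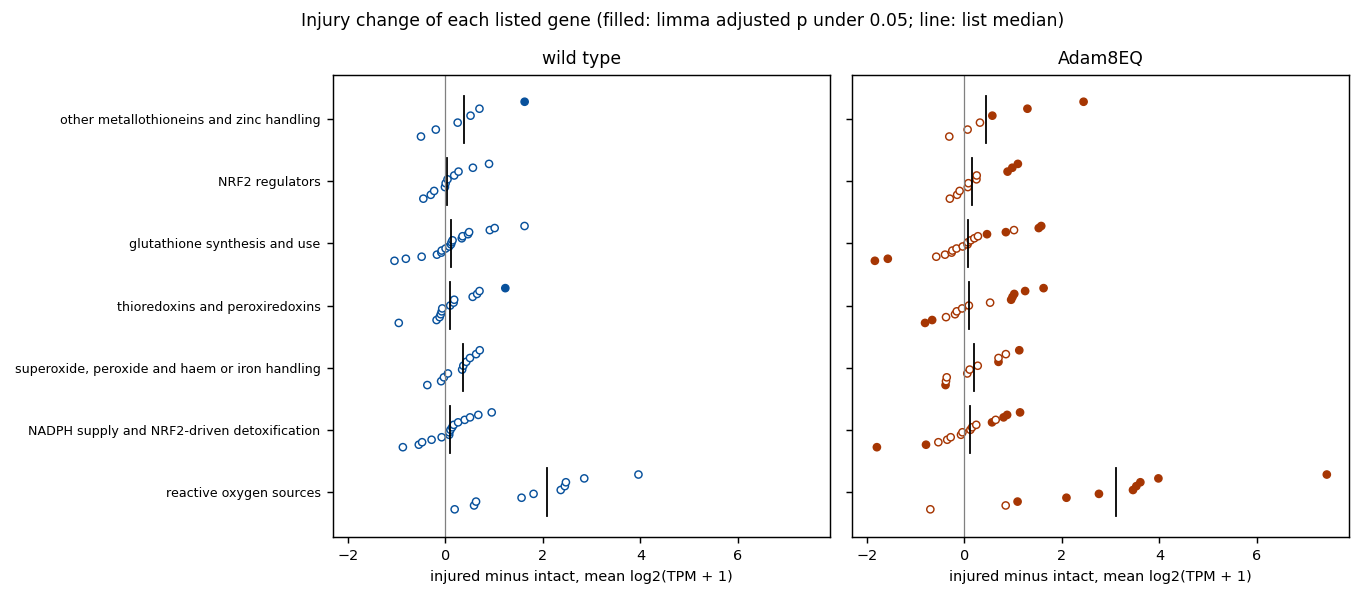
Injured minus intact difference of mean log2(TPM + 1) for each tested gene of 7 lists in wild-type (left) and Adam8EQ discs (right); filled symbols passed the threshold and lines are list medians. In Adam8EQ the list of reactive oxygen sources stands at a median of 3.11, and the other lists hold genes that rose beside genes that did not pass or fell.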

How the data were processed

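Tail discs of 16 mice were sequenced separately. Ribosomal RNA was removed with FastSelect before NEBNext Ultra II library preparation, per the labels' protocols, whereas the molecule field reads polyA RNA. The submitters' processing notes name bcl2fastq 2.20 and GRCm38; aligner, counting method and annotation are not given in the sources used here. The authors deposited 1 table of TPM values for 49315 genes; each column sums to 1000000, so the depth of a library is not known and no counting interval is given. No 2 libraries were identical.

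Groups came from the titles. The 24188 genes reaching 1 TPM in 3 or more libraries went into limma 3.58.1 in R 4.3.3 (lmFit, eBayes with trend) on log2(TPM + 1), a scale that understates changes of low genes. One model covered the 4 groups together, and Benjamini-Hochberg adjusted p-values cover all genes tested, with a threshold of 0.05. All 10 members passed the filter. Errors of changes are ordinary standard errors. The fit was tested on simulated data. Positions came from GENCODE M21 (GRCm38), where 99.3% of identifiers were found, and promoters from RefSeq (GRCm38.p6). Members, gene lists and marker lists were chosen with earlier results of these data known. All members are named; of each list, up to 4 genes with the largest called change in injured Adam8EQ discs are named, with any called in another comparison; a few further genes are named after their values were seen. Likeness used the 3 genes with the highest Pearson r among genes with a symbol and a mean of at least 5 TPM, for each member; 1 such gene is not reported here. Alternatives were a pseudocount of 0.1, no filter, median-of-ratios scaling, quantile normalization, fitting only the groups compared, a replicate block, library naming (as a term, A8 only, M only) and leaving out each mouse.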

Additional observations from a re-analysis of the deposited data

Results flagged for a closer look

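Among 30 groups of 4 or 5 libraries examined on the log2(TPM + 1) scale, 2 held a library standing apart from the rest, and chance gives about 1 in 20. Nqo1 in injured wild-type mouse 3 was 41.5 TPM where the other 3 mice had 146 to 153, a gap of 0.967 of the group's range. Nfe2l2 in injured Adam8EQ mouse 2 was 116 TPM where the other 4 mice had 63.2 to 73.6, a gap of 0.747 of the range.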

How the results depend on the processing

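The 10 genes in 5 comparisons gave 50 values and 890 alternative values, of which 824 kept their direction and their side of the threshold, 39 changed sign, 18 lost a call and 9 gained one. Every sign change was of a value not called. The number of the 10 genes called for injury in the wild type was 1, and 0 without the filter, with median-of-ratios scaling, with only the groups compared or with the replicate block; it ran from 0 to 3 as single mice were left out. In Adam8EQ it was 9, 2 with the 5 M-named libraries alone, 7 with the 4 A8-named libraries alone, and 9 in each fit without 1 mouse. Between genotypes in injured discs it was 0, and 0 to 5 without 1 mouse. Calls over all genes changed with the settings as well, as given below. The cause of these changes was not tested.

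Replicate numbers did not pair the mice: correlations of same-numbered deviations ran from -0.22 to 0.08. With the replicate block, Mt2 in the wild type was 2.23 (limma adjusted p 0.06524), and the calls were 9 for injury in Adam8EQ and 0 in the other comparisons. The block turned the intact genotype differences of Nqo1 (-0.16) and Srxn1 (0.0091) and the injured one of Mt1 (-0.18).

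For genotype in intact discs, a naming term turned Mt1 (-0.29), Nqo1 (-0.28), Sod2 (0.049) and Sod3 (-0.11). A8 libraries alone turned Mt1 (-0.0052), Nqo1 (-0.17) and Sod3 (-0.11), and M libraries alone Mt2 (0.11), Hmox1 (0.14) and Srxn1 (0.015). In injured discs Mt1 turned with quantile normalization (-0.021), the naming term (-0.46) and A8 libraries alone (-0.74), and Gclm with A8 libraries alone (0.072). The Mt1 interaction turned with median-of-ratios scaling (0.0098) and M libraries alone (0.30). Leaving out 1 mouse gave ranges across 0 for Sod3 with injury in the wild type (-0.074 to 0.15), for the intact genotype difference of Mt1 (-0.014 to 0.20), Mt2 (-0.18 to 0.055), Hmox1 (-0.32 to 0.024), Nqo1 (-0.15 to 0.11), Sod2 (-0.14 to 0.012), Sod3 (-0.11 to 0.11) and Srxn1 (-0.044 to 0.036), and for Mt1 between genotypes in injured discs (-0.18 to 0.31) and in the interaction (-0.29 to 0.20).

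Over all genes, calls for injury in the wild type were 28, and 64 with a pseudocount of 0.1, 11 without the filter, 17 with median-of-ratios scaling, 4 with only the groups compared, 5 with the block and 2 to 452 without 1 mouse. In Adam8EQ they were 7438, 3583 with A8 and 725 with M libraries alone. Between genotypes in injured discs they were 222, and 86 without the filter, 93 with quantile normalization, 5 with only the groups compared, 11 with the block, 15 with the naming term, 2 with A8 libraries alone and 7 to 2253 without 1 mouse. In intact discs they were 4, and 1 to 8 over all alternatives. TPM values carry no depth, so what depth limits could not be measured.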
